A study of Rattus norvegicus with 4 samples.

Results

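Interferon response and immunoproteasome genes were followed in rat granulosa cells, the steroid-producing cells of the ovarian follicle. The set was a list of 38 genes, and every probe set whose single gene symbol was on the list was taken as a member. This gave 35 genes with 43 probe sets, out of 14217 genes named on the array and 31042 probe sets in all. No probe set was named for Oas2, Tlr3 or Xaf1, which were not analysed here. Donors were immature Sprague Dawley rats, female and 27 days old, primed for 48 h with PMSG, a gonadotropin that makes follicles grow. They were transfected with 20 nM Runx2 siRNA or 20 nM negative control siRNA. All cultures of both groups received 10 µM forskolin, an activator of adenylyl cyclase that raises cAMP, over 48 h. Each group held 2 arrays, titled replicate 1 and 2 and called number 1 and number 2 here. The series describes separate cultures and does not say whether the same number in both groups marks the same cells. Untransfected cells and cells without forskolin were not analysed here, so no comparison shows what transfection or forskolin alone does to these genes.

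Interferons are cytokines that cells release on sensing viral or other foreign nucleic acid. Through their receptors they activate Stat and Irf transcription factors, which bind the interferon-stimulated response element (ISRE) and the gamma-activated site (GAS) in the promoters of many genes. The induced genes encode nucleic acid sensors, antiviral effectors, chemokines, and the proteasome subunits and peptide transporters that feed antigen presentation. The programme is shared by many cell types and is kept low in the absence of interferon.

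Promoters of the members were compared first. Genes listed for their response to interferon are likely to hold its response element, so a high share follows in part from the list. For the members 1 promoter per gene was used, while all promoters were counted as listed. The RefSeq promoter table (GRCr8) held 29 of the 38 members. Ccl5, Dhx58, Ifit1, Ifit2, Isg15, Mx2, Oas2, Usp18 and Zbp1 were missing entries. In the 250 bases before the start, the ISRE letters, GAAA, any 2 bases and GAAA again (TTTC on the other strand), were found in 19 of 29 member promoters, or 65.5%, against 3.41% of all 33469 promoters in the table. By class, 13 of 16 effector promoters, 3 of 5 antigen processing promoters and 1 of 4 transcription factor promoters held them. The GAS letters TTCNNNGAA, which read the same on both strands, were found in 31.0% of member promoters and 7.67% of all. The Runx letters TGTGGT, searched on both strands, were found in 17.2% and 14.5%. Matches of different motifs overlapped in 1 member promoter, that of Bst2. These matches are descriptions of letters and not of binding.

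The 100 bases before the start are shown for effectors, a sensor, a transcription factor and antigen processing genes whose values are described below, with the ISRE letters in capitals. Tap2 is shown because it holds the same letters and had the smallest differences by number among the antigen processing genes.
Oas1a: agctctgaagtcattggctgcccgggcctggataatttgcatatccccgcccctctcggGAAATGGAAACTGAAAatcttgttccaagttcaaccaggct
Ifit3: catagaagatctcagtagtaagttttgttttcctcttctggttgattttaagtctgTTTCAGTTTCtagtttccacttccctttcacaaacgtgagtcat
Ifitm3: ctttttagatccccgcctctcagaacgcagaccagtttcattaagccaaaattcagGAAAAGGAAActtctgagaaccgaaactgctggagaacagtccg
Ifih1: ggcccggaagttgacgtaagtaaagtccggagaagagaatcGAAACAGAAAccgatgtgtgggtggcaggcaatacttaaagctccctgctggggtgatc
Irf7: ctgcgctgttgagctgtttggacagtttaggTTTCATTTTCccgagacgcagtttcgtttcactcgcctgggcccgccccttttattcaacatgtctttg
Psmb10: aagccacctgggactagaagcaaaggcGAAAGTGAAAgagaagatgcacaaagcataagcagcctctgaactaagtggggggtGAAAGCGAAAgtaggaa
Tap2: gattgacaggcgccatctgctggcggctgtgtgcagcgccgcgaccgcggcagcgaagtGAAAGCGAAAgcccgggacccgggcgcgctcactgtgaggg
These windows lie at chr12:41330366-41330465 on the + strand for Oas1a, chr1:241527226-241527325 on the + strand for Ifit3, chr1:205541759-205541858 on the - strand for Ifitm3, chr3:67683969-67684068 on the - strand for Ifih1, chr1:205800024-205800123 on the - strand for Irf7, chr19:50743293-50743392 on the - strand for Psmb10, chr20:4652297-4652396 on the - strand for Tap2, all in GRCr8. In Oas1a 2 matches overlap, from 26 to 35 and from 32 to 41 bases before the start. Psmb10 has 2 separate matches, from 8 to 17 and from 64 to 73 bases before it. In Ifit3 and Irf7 the letters run on the other strand.

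Transcript levels are MAS5 signals, linear array intensities in arbitrary units, with the same trimmed mean on every array. Differences are given on the log2(signal + 16) scale, which understates changes of dim probe sets. Probe sets with a mean signal under 78.6, the lowest 40% of the array, were set apart as dim. That left 41 of the 43 member probe sets, for 34 genes, among 18625 probe sets in all. The dim ones were the only probe set of Zbp1 and a second, weaker one of Tap1. The Runx2 siRNA array numbered 2 differed from the rest in its spike-in transcripts, at 1.72 times the control mean against 0.948 for the first, and in its actin 3' to 5' ratio, at 1.71 against 1.42 to 1.45 on the other arrays. Results that use this array are therefore set beside the pair of control arrays, which does not hold it. Granulosa markers were well above the limit for dim probe sets in 8 of 9 measured genes, among them Inha, Foxl2, Star and Cyp11a1, while Amh was dim. The targeted gene Runx2 has no named probe set here, so the extent of its knockdown was not checked.

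**Figure D1:**
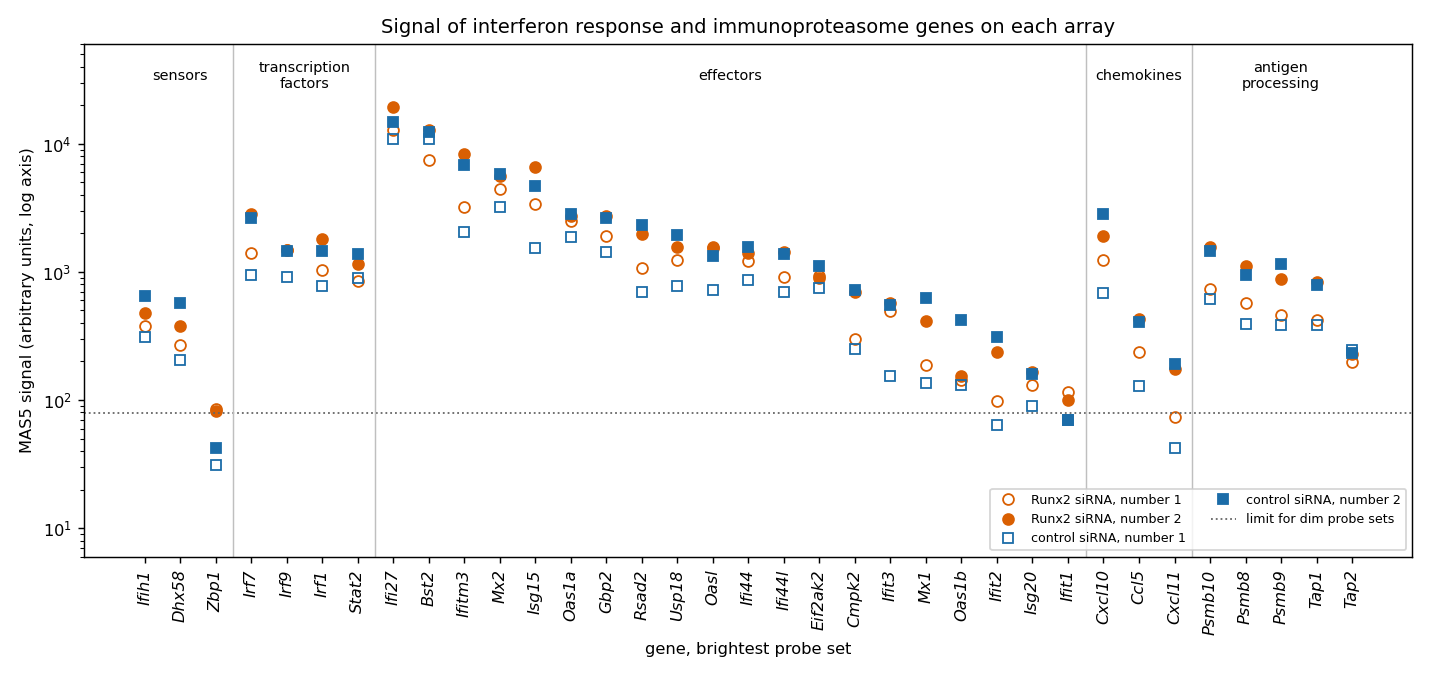
MAS5 signal (log axis, arbitrary units) of the brightest probe set of each of 35 genes on each of the 4 arrays, grouped by role, with the limit for dim probe sets dotted. Open symbols are arrays numbered 1 and filled symbols arrays numbered 2. The control array numbered 1 is the lowest of the 4 for 32 of the 35 genes. Its median signal over all probe sets was also the lowest, at 128.8 against 136.8 to 152.5. The share of all probe sets that were lowest on it was not counted.

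By median, the largest difference of the members lay between the control arrays. That between the Runx2 siRNA arrays, 0.57, was near that by siRNA between the arrays numbered 1, 0.46. Some members, such as Oasl and Ifit1, differed more by siRNA than by number. In the control pair, 40 of 41 member probe sets were higher on the array numbered 2, against 51.8% of all probe sets, and 24 of them (58.5%) were at least 2-fold higher, against 1.5% of all probe sets. In the Runx2 siRNA pair 36 of 41 were higher, against 51.4% of all, and 8 (19.5%) at least 2-fold higher, against 1.64% of all. In both pairs 35 of 41 were higher, against 35.2% of all. The same 8 were among the 24, and 0.623% of all probe sets passed that fold in both pairs. No member was 2-fold lower in either pair, where 0.349% and 1.01% of all probe sets were. The median difference of the members, number 2 minus number 1, was 1.23 with control siRNA and 0.57 with Runx2 siRNA, beside 0.01 over all probe sets in both. Members made up 8.6% of the 279 probe sets at least 2-fold higher in the control pair. Some members passed the limit for dim probe sets through the arrays numbered 2: Cxcl11 was under it on both arrays numbered 1, and both Ifit2 probe sets on the control array numbered 1. Without that limit the counts at 2-fold were 24 and 8 of 43. Each of these comparisons sets 1 array against 1, so none has a test.

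**Figure D2:**
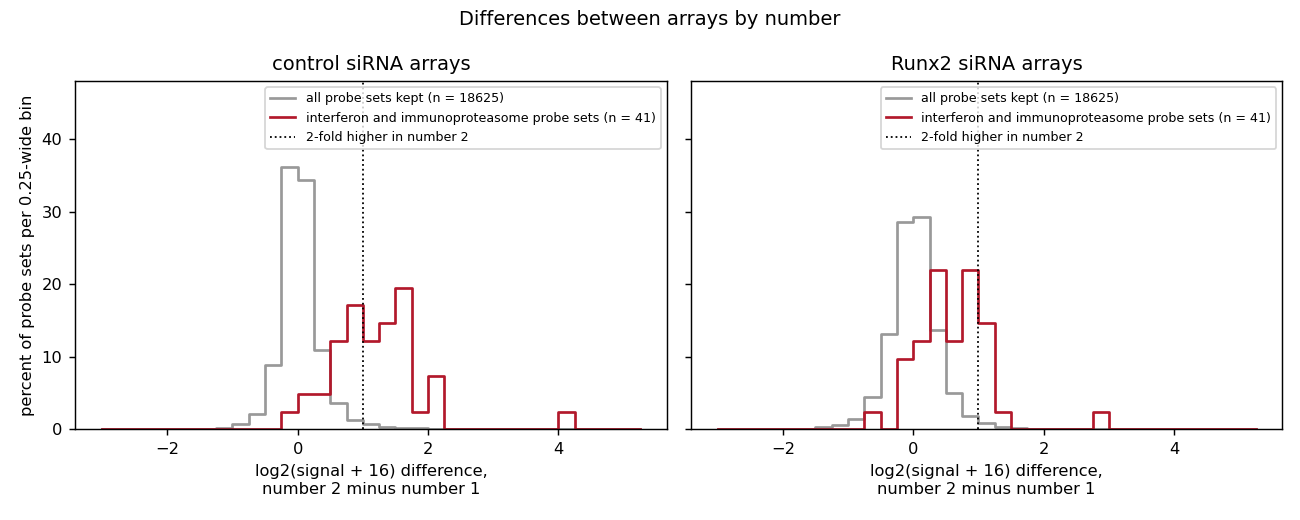
Percent of probe sets per bin of the log2(signal + 16) difference, number 2 minus number 1, for all 18625 probe sets above the limit (grey) and the 41 member probe sets (red), in the control arrays (left) and the Runx2 siRNA arrays (right). The dotted line marks 2-fold higher. The members' median lies at 1.23 on the left and 0.57 on the right, and that of all probe sets at 0.01.

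The siRNA groups were then compared. Over all 18625 probe sets 0 passed limma's test at an adjusted p under 0.05 (0% called), and 0 of the 41 members did. At an unadjusted p under 0.05 there were 2225 probe sets in all (11.9%, and 6.45% higher with Runx2 siRNA) and 0 members, whose lowest unadjusted p was 0.0537 and whose adjusted p ran from 0.421 to 0.998 by limma. The median member difference, Runx2 siRNA minus control siRNA, was 0.19 beside 0.05 over all probe sets. Leaving out Runx2 siRNA array 1 gave 0.46 and leaving out array 2 gave -0.10. Leaving out control array 1 gave -0.40 and leaving out array 2 gave 0.70. Its sign thus depended on which array was left out. Each such value sets both numbers of one group against 1 number of the other, so it holds part of the difference by number. Both arrays of one group lay above both of the other in 3 member probe sets that were higher with Runx2 siRNA (background 28.8%) and in 1 that was lower (background 18.5%). The 3 included Ifit1, which passed the limit for dim probe sets only through the Runx2 siRNA arrays. With 2 arrays against 2, an exact two-sided permutation test of a single gene cannot go below p = 0.333.

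Within same-numbered arrays, most members were higher with Runx2 siRNA in number 1, while in number 2 they were spread on both sides of 0. Between the arrays numbered 1, 38 of 41 member probe sets (92.7%) were higher with Runx2 siRNA, against 57.8% of all, with a median of 0.46 beside 0.05. Between the arrays numbered 2, 18 of 41 (43.9%) were higher, against 55.6% of all, with a median of -0.05 beside 0.04. The pattern of higher in number 1 and lower in number 2 was held by 21 of 41 members and by 16.2% of all probe sets. These values use the same 4 arrays as the comparison by number and restate it in part. In 38 of 41 members (background 52.5%) the difference by number was larger with control siRNA than with Runx2 siRNA, and the median gap was 0.63. Whether the siRNA difference truly depends on the number was not tested, since 4 arrays leave no spread for it.

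**Figure D3:**
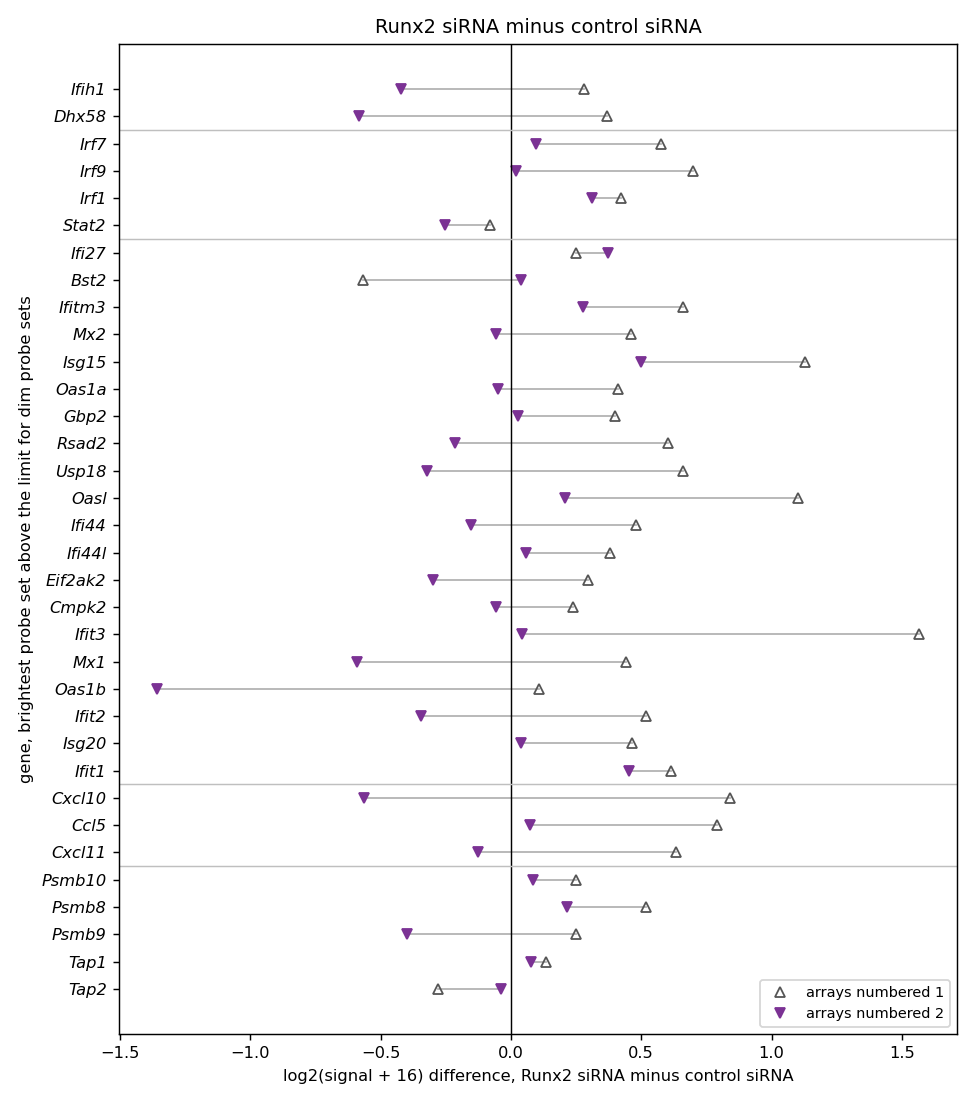
Difference in log2(signal + 16), Runx2 siRNA minus control siRNA, between the arrays numbered 1 (open triangles) and the arrays numbered 2 (filled triangles), for the brightest probe set of 34 genes. The points of number 1 lie above 0 for 31 of 34 genes, and those of number 2 for 17 of 34.

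Among the sensors, Ifih1, a cytosolic receptor for double-stranded RNA, had a signal of 310.1 and 644 on the control arrays numbered 1 and 2 and of 380.3 and 477 on the Runx2 siRNA arrays. The Runx2 siRNA arrays lay between the control arrays, so the groups overlapped. The siRNA difference was -0.07 ± 0.35 (SE, n = 2 arrays each), against a difference by number of 1.02 with control siRNA. Dhx58, a helicase of the same family that modulates its signalling, had 207 and 575 with control siRNA and 271 and 379 with Runx2 siRNA at its brightest probe set. Its 3 probe sets gave like values, with differences by number of 1.20 to 1.45 in the control pair and 0.37 to 0.46 in the Runx2 siRNA pair. Zbp1, a sensor of unusual nucleic acid helices, was dim on average and behaved otherwise. Its signal was 31.0 and 42.4 with control siRNA and 85.7 and 82.1 with Runx2 siRNA. Both Runx2 siRNA arrays were higher there, but the probe set was under the limit on average and was not tested. The dim Tap1 probe set likewise had 32.7 and 44.6 against 58.0 and 52.2.

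The transcription factors of the response followed the number as well. Irf7, which amplifies interferon gene induction, had a signal of 939.8 and 2644 on the control arrays and 1406 and 2829.9 on the Runx2 siRNA arrays, that is 2.81 and 2.01 times higher in number 2. Irf1, which acts downstream of interferon gamma and drives immunoproteasome genes, had 770.2 and 1444 with control siRNA and 1037 and 1796 with Runx2 siRNA. Within each number it was higher with Runx2 siRNA, by 0.42 and 0.31, differences smaller than those by number, 0.89 and 0.78. Irf9, a DNA-binding partner of Stat2, was low on only 1 array, with 913 and 1456 against 1493 and 1474, and its groups did not overlap by a narrow margin (0.36 ± 0.22, SE, n = 2 arrays each, adjusted p = 0.524 by limma). Its weaker probe set overlapped, with 440 and 770 against 602 and 762. Stat2 went the other way in part. Its brightest probe set had 900.1 and 1381 with control siRNA and 850.0 and 1155 with Runx2 siRNA, and its other probe set 759 and 1042 against 801 and 560.5. The lowest value of the latter was thus the Runx2 siRNA array numbered 2, and the probe sets of Stat2 disagree on the direction by number with Runx2 siRNA (0.44 and -0.50).

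Effectors were the largest class, with 20 genes and 23 probe sets, all above the limit. In the control pair all 23 were higher in number 2, 12 of them at least 2-fold, and in the Runx2 siRNA pair 20 were higher and 5 at least 2-fold. Of all probe sets 51.8% and 51.4% were higher in these pairs, and 1.5% and 1.64% at least 2-fold. The Mx genes, which encode antiviral GTPases, showed the widest range. The weaker Mx2 probe set had 133 and 2472 with control siRNA and 282 and 1991 with Runx2 siRNA, so number 2 was 18.5 and 7.07 times higher. Its difference of 4.06 in the control pair ranked 3 of all 18625 probe sets. The brighter Mx2 probe set had 3230.0 and 5836 against 4451 and 5612, a ratio of only 1.81 and 1.26, so the size for Mx2 depends on the probe set. Mx1 had 135 and 626 with control siRNA and 189 and 410.4 with Runx2 siRNA.

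Isg15, a ubiquitin-like protein that is joined to other proteins, had 1535 and 4686 with control siRNA and 3376 and 6630.3 with Runx2 siRNA. It was higher with Runx2 siRNA within each number, by 1.13 and 0.50, yet the groups overlapped (0.81 ± 0.58, SE, n = 2 arrays each, adjusted p = 0.568 by limma). Usp18, which removes Isg15 and restrains the interferon receptor, had 775 and 1955 against 1232 and 1560.4, so its difference by siRNA had opposite signs, at 0.66 in number 1 and -0.32 in number 2. Ifitm3, a membrane protein that blocks viral entry, had 2032 and 6869 with control siRNA and 3218 and 8314 with Runx2 siRNA, higher with Runx2 siRNA within each number by 0.66 and 0.28. Bst2, which tethers budding viruses, was an exception. Its signal was 10972 and 12407 with control siRNA and 7404 and 12730.4 with Runx2 siRNA, and its lowest array was the Runx2 siRNA array numbered 1.

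The Ifit genes, which bind foreign RNA ends, did not act as a block. Ifit2 had 63.4 and 308 with control siRNA and 97.7 and 239 with Runx2 siRNA, which follows the number. Ifit3 was low only on the control array numbered 1, with 155 and 554 against 492 and 570.4, and its difference of 1.57 in number 1 was the largest of the members, against 0.04 in number 2. Ifit1 was low and flat by number, with 69.3 and 69.4 against 115 and 101. Both its control values were under the limit for dim probe sets, which it passed on average only through the Runx2 siRNA arrays. Its groups did not overlap (0.53 ± 0.22, SE, n = 2 arrays each, adjusted p = 0.421 by limma), but the difference was 0.31 with cyclic loess normalization (adjusted p = 0.611 by limma). In the gene order of GRCr8 Ifit2 and Ifit3 are direct neighbours, with 1 protein-coding gene between Ifit3 and Ifit1.

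Genes of the oligoadenylate synthetase family, some of whose products activate an RNase on meeting double-stranded RNA, also differed among themselves. Oas1a had 1863 and 2836 with control siRNA and 2479 and 2738 with Runx2 siRNA. Oasl, a member of the same family, had 723 and 1325 against 1569 and 1532, so its groups did not overlap (0.65 ± 0.28, SE, n = 2 arrays each, adjusted p = 0.433 by limma). Oas1b was high on only 1 array, with 132 and 421 with control siRNA and 144 and 155 with Runx2 siRNA. Its difference of -1.36 between the arrays numbered 2 was the lowest of the members. In Ifit3, Irf9 and Oasl, by contrast, 1 array was far below 3 similar ones, the control array numbered 1.

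Rsad2, which makes a nucleotide that ends viral RNA chains, and its neighbour Cmpk2, a nucleotide kinase, are direct neighbours. Rsad2 had 699 and 2306 with control siRNA and 1069 and 1983 with Runx2 siRNA, and the brighter Cmpk2 probe set had 250.4 and 723 against 298 and 695. The weaker Cmpk2 probe set had 83.7 and 317 against 173 and 264, so its ratio with Runx2 siRNA was 1.53 and not 2.33. In all 3 probe sets number 2 was above number 1 in both pairs, as in 35.2% of all probe sets. Ifi44 and Ifi44l, also direct neighbours, were 1.82 and 1.97 times higher in number 2 with control siRNA and 1.17 and 1.57 times with Runx2 siRNA. Gbp2, an interferon-induced GTPase, had 1434 and 2654 against 1895 and 2706. Eif2ak2, the kinase that halts translation on binding double-stranded RNA, had 749 and 1108 against 924 and 898, and Isg20, an exonuclease, had 90.3 and 161 against 131 and 166. Ifi27 had the highest mean signal, with 10829.7 and 14828 against 12879 and 19212, 1.37 and 1.49 times higher in number 2. Its difference by number with Runx2 siRNA was 0.58 as deposited, 0.34 with cyclic loess and 0.11 with quantile normalization.

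The 3 chemokines, which draw T cells, were all at least 2-fold higher in number 2 with control siRNA, against 1.5% of all probe sets. Of these, Cxcl11 passed the limit for dim probe sets only through the arrays numbered 2. Cxcl10 had 686 and 2846 with control siRNA and 1239 and 1922 with Runx2 siRNA, ratios of 4.15 and 1.55. Cxcl11, its direct neighbour and a ligand of the same receptor, had 41.9 and 191 against 73.8 and 173, and Ccl5 had 129 and 408 against 236 and 429.6. For Cxcl10 and Cxcl11 the Runx2 siRNA arrays lay between the control arrays.

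**Figure D4:**
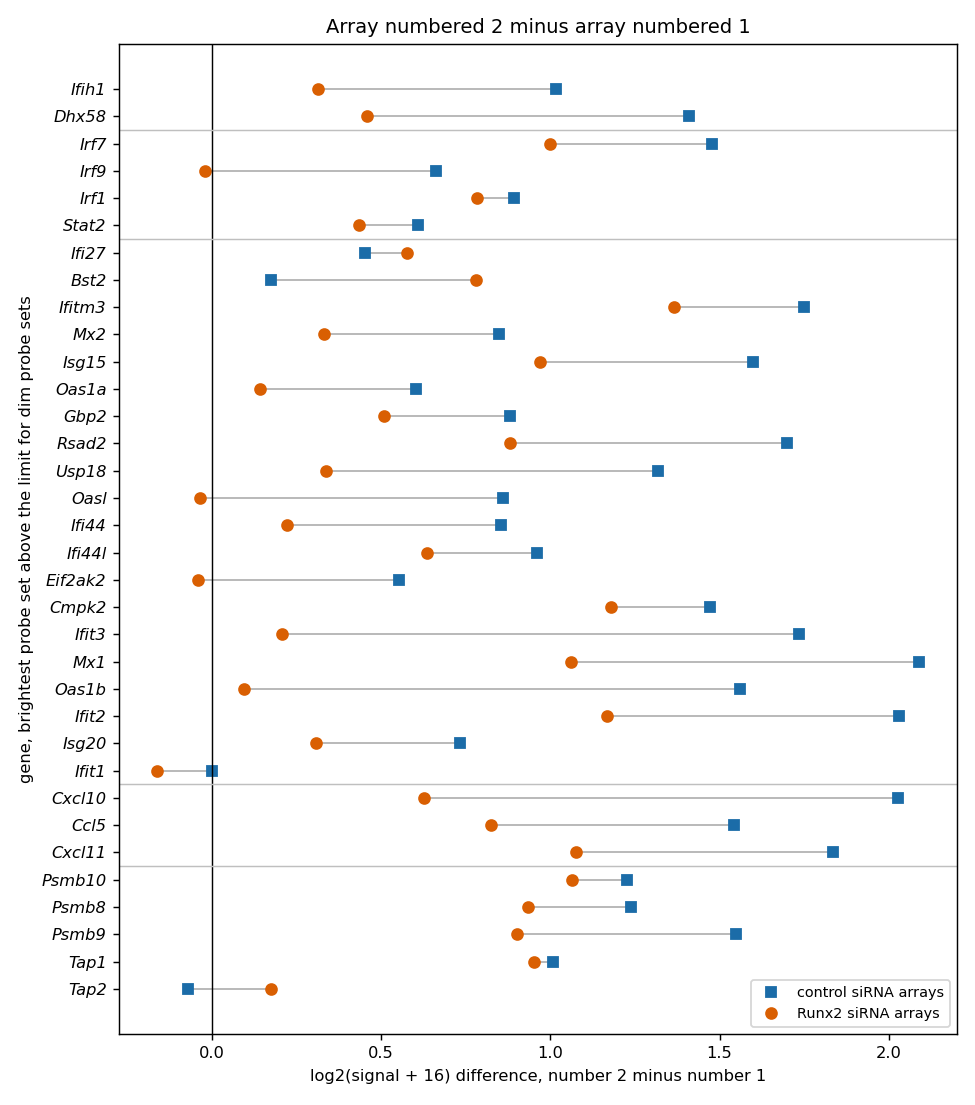
Difference in log2(signal + 16), number 2 minus number 1, in the control arrays (squares) and the Runx2 siRNA arrays (circles) for the brightest probe set of 34 genes, with roles separated by lines in the order sensors, transcription factors, effectors, chemokines and antigen processing. The control value is the larger for 31 of the 34 genes, and the antigen processing genes other than Tap2 show values near or above 0.90 in both pairs.

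Among the antigen processing genes 4 of 5 were at least 2-fold higher in number 2 with control siRNA, and 1 of 5 with Runx2 siRNA. The shares of all probe sets were 1.5% and 1.64%. With Runx2 siRNA, Tap1, Psmb8 and Psmb9 lay just under that fold, with differences of 0.95, 0.94 and 0.90, where 2-fold is 1. Psmb8, Psmb9 and Psmb10 encode the catalytic subunits that replace Psmb5, Psmb6 and Psmb7 in the immunoproteasome. Psmb8 had a signal of 393 and 949 with control siRNA and 569 and 1103 with Runx2 siRNA. Psmb9 had 385 and 1157 against 460.1 and 874, and Psmb10 had 616 and 1464 against 735 and 1554. For each of the 3 subunits number 2 was above number 1 in both pairs, as in 35.2% of all probe sets. The ratios of number 2 to number 1 were 2.41, 3.01 and 2.38 with control siRNA and 1.94, 1.90 and 2.12 with Runx2 siRNA. Tap1, a subunit of the peptide transporter, had 383 and 787 against 422 and 832. Tap2, its partner, was flat, with 246 and 234 against 199 and 227, although Tap2, Psmb8, Tap1 and Psmb9 follow each other in the genome with 0 protein-coding genes between them. Its siRNA groups did not overlap, with Runx2 siRNA lower (-0.16 ± 0.16, SE, n = 2 arrays each, adjusted p = 0.683 by limma).

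The constitutive core subunits of the proteasome showed smaller differences by number. Of 14 listed, 13 were measured. In number 2, 8 were higher with control siRNA and all 13 with Runx2 siRNA, against 51.8% and 51.4% of all probe sets. However, 0 were 2-fold higher in either pair, against 1.5% and 1.64% of all. Their median difference by number was 0.05 with control siRNA and 0.24 with Runx2 siRNA, against 1.23 and 0.94 for the 5 antigen processing members. Psmb5 had 4681 and 4465 with control siRNA and 5065 and 5779.5 with Runx2 siRNA, and Psmb7 had 5246 and 5007 against 4865 and 5325. Psma6 and Psma4, of the outer rings, had 6845 and 7552 against 7592 and 9478, and 3566 and 3672 against 3848 and 4548. Psmb6 was not analysed here.

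**Figure D5:**
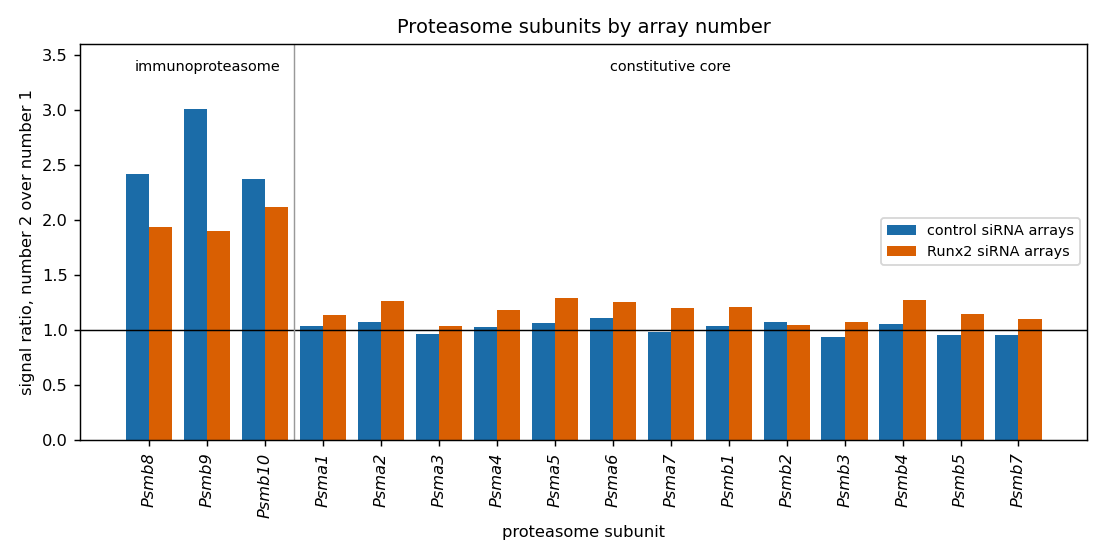
Ratio of the signal on the array numbered 2 to that on the array numbered 1, in the control arrays (blue) and the Runx2 siRNA arrays (orange), for the 3 immunoproteasome subunits and 13 constitutive core subunits. The immunoproteasome bars lie between 1.90 and 3.01, and the Psmb5 bars at 0.954 and 1.14.

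By class, the median difference by number in the control pair was 1.30 for the 4 sensor probe sets, 0.72 for the 6 of transcription factors, 1.30 for the 23 of effectors, 1.83 for the 3 of chemokines and 1.23 for the 5 of antigen processing. In the Runx2 siRNA pair the medians were 0.38, 0.38, 0.57, 0.82 and 0.94 in the same order. The gap between the pairs thus had a median of 0.89 in sensors and 0.16 in antigen processing. Of the sensor values 3 of 4 belong to Dhx58, and the classes were not tested against each other. Genes with the ISRE letters had a median of 0.98 in the control pair (18 genes) and genes without them 1.24 (9 genes).

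Other genes of the pathway were taken from lists by role. Of 17 further interferon-induced genes measured, 16 were higher in number 2 with control siRNA (51.8% of all probe sets) and 7 at least 2-fold (1.5% of all), with medians of 0.73 and 0.45 in the control and Runx2 siRNA pairs. Igtp, an interferon-induced GTPase, had 518 and 1212 with control siRNA and 865 and 1563 with Runx2 siRNA. Its weaker probe set had 311 and 781 against 495 and 569.9. Gbp4, a relative of Gbp2, had 52.1 and 156 against 113 and 175. Ifi30, a lysosomal reductase, was flat by number and lower with Runx2 siRNA, with 2606 and 2496 against 1769 and 1905 (-0.47 ± 0.10, SE, n = 2 arrays each, adjusted p = 0.346 by limma). By the brightest probe sets, 0 of the 5 receptor genes above the limit were 2-fold higher in number 2, with medians by number of 0.26 with control siRNA and 0.33 with Runx2 siRNA. Ifnar2, a chain of the type I receptor, had 716 and 690.0 against 824 and 768, and Ifngr1, of the gamma receptor, had 1861 and 2226 against 2048 and 2583. Il10rb, a chain shared by receptors of related cytokines, had 955 and 1162 against 719 and 1098. Ifnb1 and Ifng, the interferons measured, were dim, with signals of 2.08 to 10.2 and 4.06 to 20.0. Among 14 measured signalling genes above the limit, 2 were 2-fold higher in number 2 with control siRNA. Tlr2, a receptor for bacterial lipoproteins, had 51.3 and 131 against 82.9 and 212. Irf2, an antagonist of Irf1, had 434 and 547 against 379 and 325, and Ticam1, an adaptor of Tlr3, had 225 and 177 against 164 and 144. By the brightest probe set of each, 0 of 8 antigen presentation genes above the limit were 2-fold higher. B2m, the light chain of class I molecules, had 9840 and 14582 against 10291 and 17863. Its weaker probe set had 1433 and 2912 against 1347 and 2325, a ratio of 2.03 and 1.73. Tapbp, which loads peptides on them, had 898 and 1598 against 721 and 1244. At their brightest probe sets the chaperones Pdia3 and Canx were lower with Runx2 siRNA. Pdia3 had 8025 and 7412 against 6379.9 and 5343, and Canx 6942 and 5821 against 5559 and 4877. Their adjusted p was 0.381 and 0.457 by limma. At the weaker Pdia3 probe set the groups overlapped, with 152 and 206 against 181 and 155. The weaker Canx probe sets were also lower. By the brightest probe set of each gene, 0 members of these lists had an adjusted p under 0.05 by limma. By the same probe sets, unadjusted p was under 0.05 in 0 of 5 receptor, 2 of 14 signalling and 1 of 17 induced genes. It was so in 1 of 8 presentation and 0 of 13 core genes above the limit, against 11.9% of all probe sets.

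Markers of other cells also differed by number. Of 13 measured leukocyte markers 9 were higher in number 2 in both pairs. Their summed signal was 1017 and 1603 with control siRNA and 1289 and 2013 with Runx2 siRNA. The largest part of it was Cd14, with 456 and 758 against 633 and 956. Of the 13, 8 were dim. Among the 5 above the limit 4 were higher in both pairs, as were 35.2% of all probe sets above it. Ptprc, the pan-leukocyte surface marker, lay between 2.32 and 37.4, Itgam between 2.62 and 8.10, and 6 of the 13 were below 78.6 on every array. Lyz2, the macrophage lysozyme, had 134 and 307 with control siRNA and 145 and 312 with Runx2 siRNA. Theca and stromal markers were higher in number 2 in both pairs for 6 of 7. Their sums were 1282 and 2275 with control siRNA and 1547 and 2144 with Runx2 siRNA. The largest part of these was Col3a1, with 719 and 1275 against 730 and 783. The 5 above the limit, Col1a1, Col3a1, Dcn, Lum and Pdgfra, were all higher in both pairs, as were 35.2% of all probe sets above it. The theca markers Cyp17a1 and Insl3 were dim. Cyp17a1 was lower in number 2, with differences of -0.28 with control siRNA and -0.77 with Runx2 siRNA. Insl3 was nearly flat, at 0.07 and 0.04. Of the endothelial markers 1 of 5 was higher in both pairs. Both red cell markers measured were lower in number 2 in both pairs, with sums of 3040 and 1143 with control siRNA and 3435 and 2005 with Runx2 siRNA. Among the 8 granulosa markers above the limit, 1 was higher in number 2 with control siRNA and 4 with Runx2 siRNA. The shares of all probe sets were 51.8% and 51.4%. By the brightest probe set of each, only Lhcgr, the luteinizing hormone receptor, was at least 2-fold lower, with 5593 and 1484 against 4475 and 640.2. A weaker Inhba probe set had 2237 and 1303 against 2838 and 1374, a difference of -1.04 with Runx2 siRNA. A weaker Cyp19a1 probe set had 1505 and 913 against 596 and 291, a difference of -0.997 with Runx2 siRNA. Star went the other way in both pairs, with 14279 and 15538 against 12682 and 13376. The part of such cells in the differences by number was not tested. In bulk RNA more cells of a type and more RNA per cell cannot be told apart.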

How the data were processed

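Total RNA of 4 granulosa cell cultures was hybridised to 1 array each. The authors deposited 1 signal intensity per probe set and array, made with MAS5 per the submitters' processing notes, whose version is not given in the sources used here. The 57 array control probe sets were left out. Probe sets were named from the platform's annotation: 20826 had 1 symbol, 436 several and 9780 none. Of those with 1 symbol, 20758 matched the current gene table (GRCr8). No column was without a sample (0). The limit for dim probe sets was the lowest 40% by mean signal over all arrays. The siRNA groups were compared on log2(signal + 16) with limma 3.58.1 in R 4.3.3 (lmFit and eBayes with a trend), with Benjamini-Hochberg adjustment over 18625 probe sets, and the code was checked on simulated data. The number of arrays limits the precision. Promoters and plots were handled in Python 3.11.15 and matplotlib 3.10.9. The members and lists were chosen with earlier results of these data known. By rule, up to 8 members a class were given in full, the brightest and those with the largest differences; further effectors were added after their values were seen. Of each pathway list the 3 genes with the largest siRNA difference were named, with B2m, Psmb5 and Psmb7. Alternatives were other constants, normalizations and filters, no trend, a replicate block, and leaving out each array.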

Additional observations from a re-analysis of the deposited data

How the results depend on the processing

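No probe set was called by limma without each array in turn, and the median siRNA difference of the members then ran from -0.40 to 0.70. Each such fit has 1 array in a group, assumed to vary like the other group, and 1 residual degree of freedom, so its lack of calls says nothing about stability, and it holds part of the difference by number. With the replicate number as a block, 1512 of 18625 probe sets passed an adjusted p under 0.05 by limma (610 higher and 902 lower with Runx2 siRNA). Among the member probe sets 3 of 41 did, a share near that of all probe sets. They were Isg15 (0.81, adjusted p = 0.0102), Ifitm3 (0.47, adjusted p = 0.0387) and Irf1 (0.37, adjusted p = 0.0442), each higher in both pairs. Deviations of same-numbered arrays from their group means correlated at 0.548 across probe sets, but no label ties a number to shared cells, so the block rests on the number alone. With a constant of 64 in place of 16, 4 members and not 8 were at least 2-fold higher in number 2 with Runx2 siRNA. The medians by number and by pair kept their direction under the other constants, normalizations and filters.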
